A study of Mus musculus with 12 samples.

Results

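Endothelial cells line the vessels of a nerve, and those inside its fascicles form the vascular side of the blood-nerve barrier. VEGF ligands act on the receptor tyrosine kinases encoded by Flt1, Kdr and Flt4, which drive growth of blood and lymphatic vessels. Angiopoietin 1 activates the receptor encoded by Tek and steadies vessels, while angiopoietin 2 acts on the same receptor in a context-dependent way. The 42 genes described here are the VEGF ligands and receptors, the angiopoietins with their receptors, and genes in use in vascular endothelium, picked by symbol from the 47480 symbols of the deposited table of estimated counts.

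RNA was measured by polyA RNA sequencing in the trigeminal nerve of mice with both Nf1 alleles floxed (Nf1 flox/flox) in 2 groups. The 6 plexiform neurofibroma samples carried PostnCre, and the 6 normal nerve samples, also Nf1 flox/flox, did not. Nf1 encodes neurofibromin, a brake on RAS, and Cre here is named for periostin (Postn), whose regulatory sequence is used to reach the Schwann cell lineage. Tumour state and Cre genotype coincide, so they cannot be told apart. Age, sex and batch are not in the labels, nor whether each sample is a separate animal. The p-values therefore set group differences against the spread between these samples, and could be too small if samples shared an animal. Libraries held between 15506364 and 19745644 counts in plexiform neurofibroma and between 14160025 and 19989351 in normal nerve. Values are CPM, a gene's counts scaled to the library's total with library factors. The targeted gene Nf1 had 69.5, 86.6 and 93.1 CPM in plexiform neurofibroma (lowest, median and highest of 6 libraries), against 85.5, 141 and 173 CPM in normal nerve, a log2 fold change of -0.65 with an adjusted p of 0.0179, and Postn had 140.5 ± 53.6 CPM in plexiform neurofibroma and 22.1 ± 6.44 CPM in normal nerve (SD, n = 6 each). Summed sensory neuron markers came to 14100 to 17940 CPM in plexiform neurofibroma and 12200 to 22070 CPM in normal nerve. In bulk tissue, fewer cells of a type and less RNA per cell cannot be told apart.

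Several libraries stood apart. Summed haemoglobin transcripts came to 97.8 to 1098 CPM in plexiform neurofibroma and to 192 to 4490 CPM in normal nerve. Plexiform neurofibroma libraries 5 and 1 held 1098 and 1051 CPM, and normal nerve libraries 6 and 2 held 4490 and 1959 CPM. Summed central nervous system markers came to 264 to 1030 CPM in plexiform neurofibroma and to 369 to 2604 CPM in normal nerve, the highest in normal nerve library 6. Skeletal muscle markers were highest in plexiform neurofibroma library 1, at 1876 CPM, then normal nerve library 3, at 467 CPM. Values with these libraries left out, and with summed haemoglobin transcripts as a covariate, are given for the members as a group and for each called member. Some of these values are also given for some other members.

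**Figure D1:**
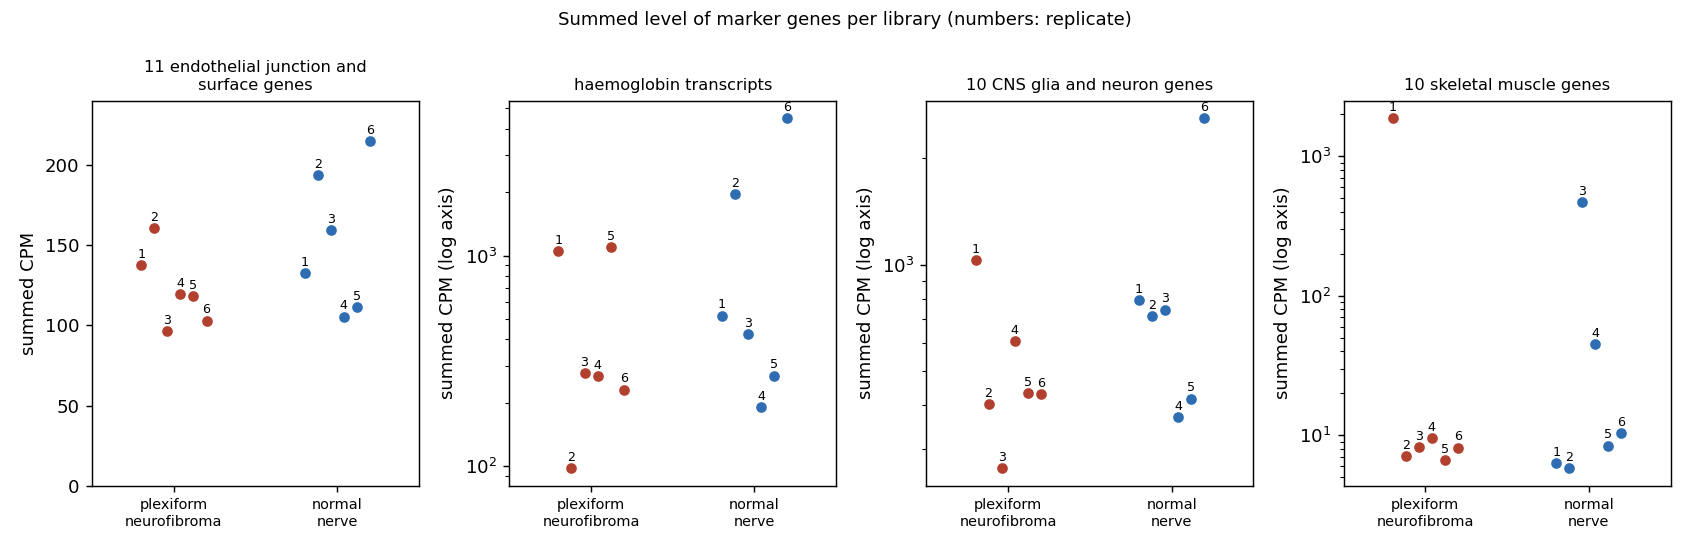
Summed CPM per library of 11 endothelial junction and surface genes (linear axis) and of haemoglobin, central nervous system and skeletal muscle transcripts (log axes), plexiform neurofibroma left and normal nerve right, with replicate numbers beside points. The junction genes sum to 96.3 to 161 CPM in plexiform neurofibroma and 105 to 215 CPM in normal nerve, and normal nerve libraries 6 and 2 are the highest for the junction genes (215 and 193 CPM) and for haemoglobin.

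Endothelial and VEGF genes had mostly lower values in plexiform neurofibroma, and for most the difference did not pass the test against the spread between libraries. All 42 genes passed the filter on low counts. edgeR's quasi-likelihood test called 3 of them lower (Vegfa, Cdh5 and Rasip1) and 0 higher at an adjusted p under 0.05, which is 7.14% of the 42 against 18.7% of the 17236 genes tested. Among all genes tested, 8.63% were called lower and 10.0% higher. At an unadjusted p under 0.05, 13 members were lower and 1 was higher, or 33.3% of the 42 against 35.2% of all genes tested. DESeq2 called 5 lower and 0 higher, adding Nos3 and Sox17, and limma-voom with sample weights called 4 lower and 1 higher, adding Flt4 and Mfsd2a. The fold change was below 0 for 35 members and above 0 for 7, so 83.3% were below 0 against 52.5% of all genes tested. The median log2 fold change was -0.34 over the members and -0.02 over all genes tested, and single members ran from -1.14 (Apln) to 0.41 (Mfsd2a). For none of the 42 did the groups separate without overlap, against 7.39% of all genes tested.

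Normal nerve library 6 was high for most members. It was the highest of the 12 libraries for 25 members, or 59.5% of them against 18.8% of all genes tested. Normal nerve library 2 was the highest for another 6, or 14.3% against 11.7%. For 20 members these were the top 2 normal nerve libraries. Angpt2, Mfsd2a and Slc7a5 ran the other way, with normal nerve library 6 the lowest of the 12. Without normal nerve library 6 the members' median log2 fold change was -0.21, with 4 called lower and Sox17 added. With normal nerve libraries 2 and 6 left out it was -0.11, with 26 members below 0 and 0 called. Leaving out the 3 libraries high in muscle or central nervous system transcripts gave a median of -0.20 and 1 called member, Cdh5. With summed haemoglobin transcripts as a covariate the median was -0.14 and 0 members were called. Counts of called members moved with single libraries. Without plexiform neurofibroma libraries 1 to 6 in turn, 3, 3, 1, 0, 2 and 0 members were called, against 15.6%, 12.4%, 16.5%, 10.9%, 17.7% and 12.3% of all genes tested. Without normal nerve libraries 1 to 6 in turn, 4, 1, 0, 2, 3 and 4 were called, against 18.8%, 14.8%, 15.1%, 13.2%, 12.0% and 28.8%. With the 3 libraries left out 23.3% of all genes tested were called, with normal nerve libraries 2 and 6 left out 26.0%, and with the covariate 17.2%. DESeq2 called 25.0% of all genes tested and limma-voom 32.4%. With RLE factors 3 members and 18.7% of all genes were called, with upper-quartile factors 3 and 18.9%, with CPM above 1 in 6 samples 3 and 20.4%, with transcript length correction 3 and 15.1%, and with no filter 2, Vegfa being lost, and 7.04%. Among plexiform neurofibroma libraries, library 2 was the highest for 22 members and library 1 for 14, while library 3 was the lowest for 17.

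**Figure D2:**
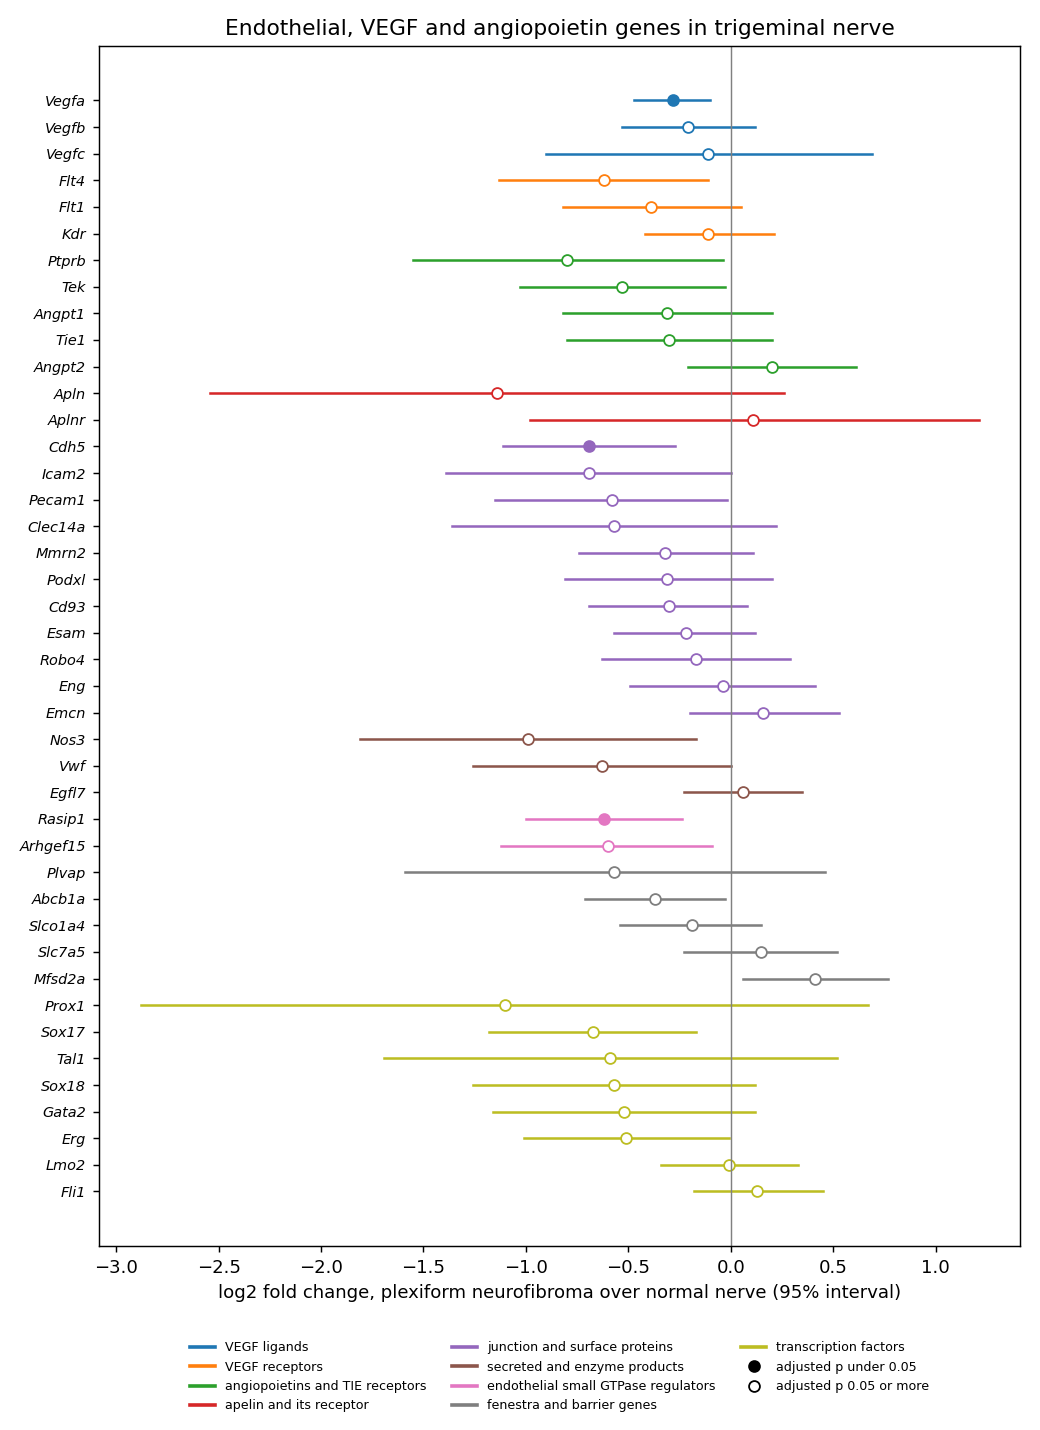
Log2 fold change (plexiform neurofibroma over normal nerve) of each of the 42 genes with its 95% interval, grouped by role, with filled points for an adjusted p under 0.05. The 3 filled points, Vegfa, Cdh5 and Rasip1, lie below 0, and 35 of the 42 points lie below 0.

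**Figure D3:**
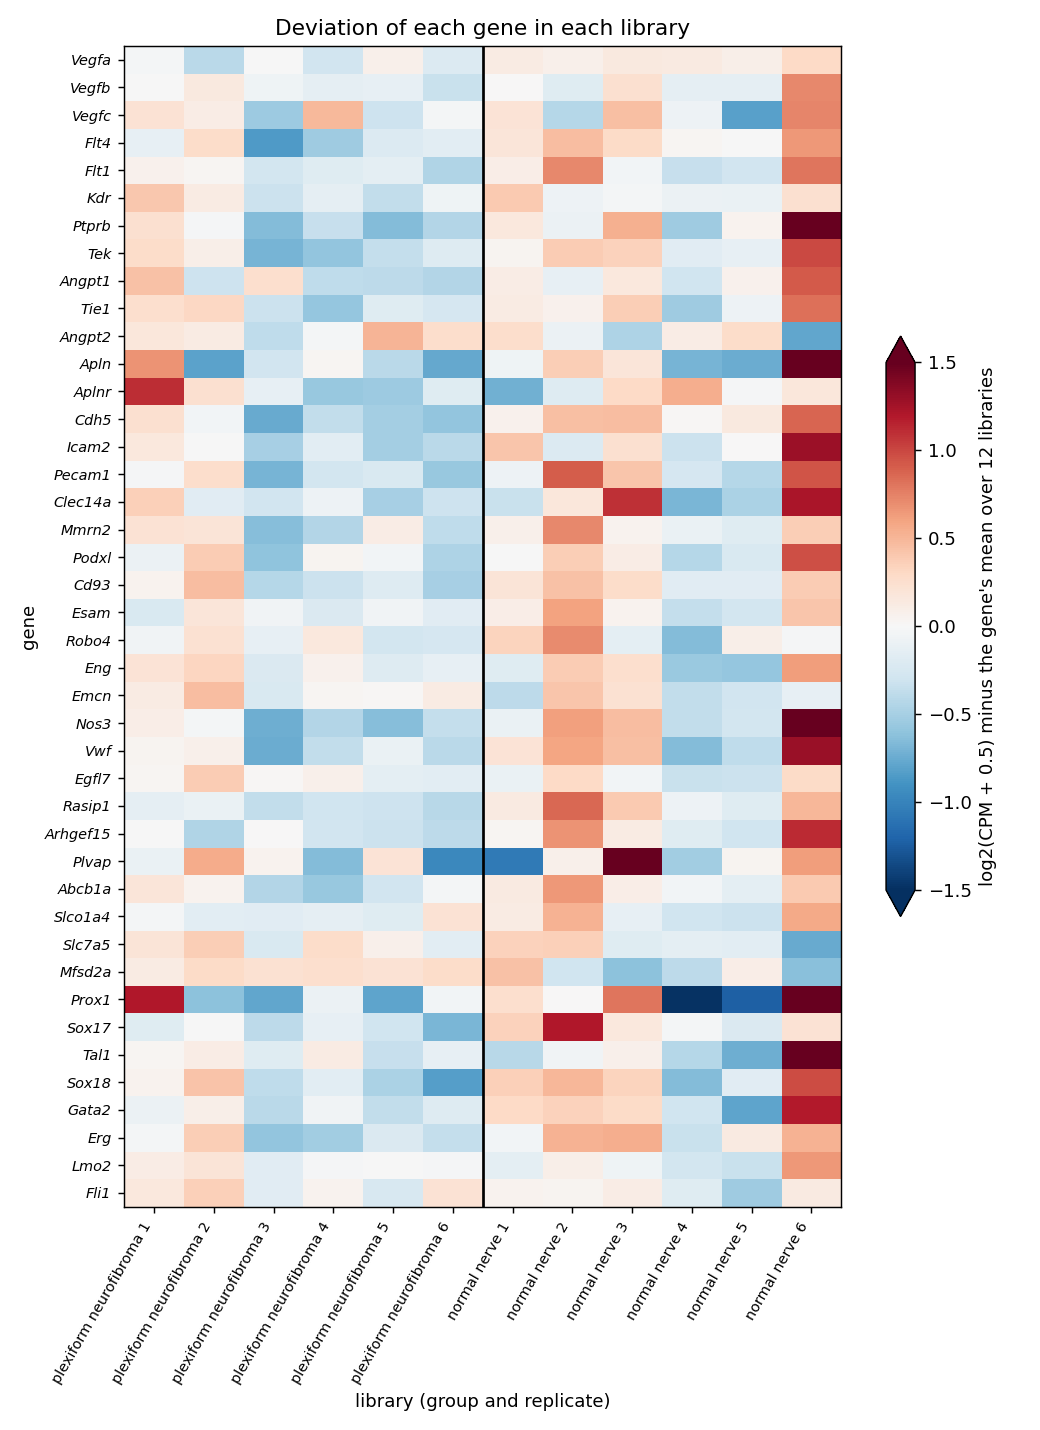
Log2(CPM + 0.5) minus each gene's mean over 12 libraries, 42 genes by role down the page and plexiform neurofibroma libraries left of normal nerve libraries. The column of normal nerve library 6 is the highest of 12 for 25 genes, and Angpt2, Mfsd2a and Slc7a5 are lowest there.

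The spread between libraries, which was described and not tested, was wider in normal nerve for most members. The coefficient of variation was larger there for 34 of the 42 members, or 81.0% against 71.8% of all genes tested. Its median over members was 21.5% in plexiform neurofibroma and 34.4% in normal nerve, and 28.8% in normal nerve without library 6. Over all genes tested the medians were 13.4% in plexiform neurofibroma and 18.0% in normal nerve.

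Promoter windows from RefSeq, the 250 bases before a gene's start on GRCm38.p6, matched 22 of the 42 members by symbol. Those of Vegfa, Flt1, Rasip1 and Mfsd2a are shown because they cover the ligand and the regulator that fell, the most abundant receptor per length and the member with the highest fold change. Capitals mark the ETS core GGAAG, the GC box GGGCGG and the hypoxia response element core ACGTG, each on either strand, and no 2 marked matches overlap.
Vegfa, chr17:46032378-46032627, minus strand: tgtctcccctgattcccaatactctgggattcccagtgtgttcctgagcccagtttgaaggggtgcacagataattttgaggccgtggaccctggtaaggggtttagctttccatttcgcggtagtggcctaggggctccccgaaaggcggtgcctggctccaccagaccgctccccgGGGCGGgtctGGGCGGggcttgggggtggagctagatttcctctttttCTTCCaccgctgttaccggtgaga
Flt1, chr5:147726012-147726261, minus strand: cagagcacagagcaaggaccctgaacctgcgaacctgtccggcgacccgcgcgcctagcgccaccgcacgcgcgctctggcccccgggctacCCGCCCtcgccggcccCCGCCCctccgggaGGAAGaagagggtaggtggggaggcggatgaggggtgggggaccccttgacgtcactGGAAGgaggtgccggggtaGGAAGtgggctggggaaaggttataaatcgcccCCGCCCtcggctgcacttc
Rasip1, chr7:45627287-45627487, plus strand: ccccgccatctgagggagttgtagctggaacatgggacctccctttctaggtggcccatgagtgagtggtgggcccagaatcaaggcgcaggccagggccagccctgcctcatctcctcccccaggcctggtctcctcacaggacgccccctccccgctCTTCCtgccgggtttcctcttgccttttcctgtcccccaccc
Mfsd2a, chr4:122961189-122961438, minus strand: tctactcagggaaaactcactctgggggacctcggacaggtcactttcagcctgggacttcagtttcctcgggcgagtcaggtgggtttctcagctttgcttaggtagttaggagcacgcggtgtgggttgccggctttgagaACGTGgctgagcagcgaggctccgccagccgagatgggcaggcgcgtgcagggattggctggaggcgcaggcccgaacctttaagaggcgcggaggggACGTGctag
The Vegfa window shown held 1 ETS core and 2 GC boxes, and another Vegfa window of the table, not shown, held ACGTG. Of the other windows shown, that of Flt1 held 3 of each, that of Rasip1 1 ETS core and that of Mfsd2a 2 hypoxia response element cores. The Rasip1 window is 201 bases long, because 49 bases that the GENCODE vM21 annotation places inside the gene were left out. Counting all 30 windows of members, 70.0% held GGAAG against 64.1% of the 32851 windows in the table, 50.0% held GGGCGG against 32.7%, and 10.0% held ACGTG against 16.6%. Also searched were TATAAA, in 10.0% against 12.4%, AGATAA, in 10.0% against 9.99%, and ACAAAG, in 20% against 16.5%. Median GC content was 60% in member windows and 52.4% in all windows. These matches describe the letters and were not tied to binding.

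Of the ligands, Vegfa fell and Vegfb and Vegfc did not pass the test. Vegfa, the main ligand for growth of blood vessels (ENSMUSG00000023951.17, GRCm38 chr17:46016993-46032369, minus strand), had 39.8, 30.4, 40.3, 33.1, 42.9 and 35.1 CPM in plexiform neurofibroma libraries 1 to 6, against 44.1, 42.9, 45.02, 44.5, 43.1 and 49.9 CPM in normal nerve libraries 1 to 6. In 5 of 6 plexiform neurofibroma libraries it lay below the lowest normal nerve library, and the groups overlap through plexiform neurofibroma library 5. Its log2 fold change was -0.28 (SE 0.09, 95% interval -0.47 to -0.10; adjusted p = 0.0357 by edgeR's quasi-likelihood test), a fold of 0.822. Leaving out any 1 of 7 libraries (plexiform neurofibroma 2, 4 or 6, or normal nerve 2, 3, 4 or 5) ended the call, with adjusted p up to 0.0853. For Vegfa the log2 fold change was -0.26 (edgeR adjusted p = 0.0806) with the 3 libraries left out, -0.26 (0.0583) without normal nerve libraries 2 and 6, and -0.23 (0.0546) with the haemoglobin covariate, and none of the 3 passed. Vegfb, a ligand of the Flt1 product with roles in fatty acid handling and vessel survival, had 21.6, 25.6 and 30.3 CPM in plexiform neurofibroma, against 24.2, 26.1 and 45.3 CPM in normal nerve. On the log2 scale the difference was -0.21 (95% interval -0.53 to 0.12; edgeR adjusted p = 0.343). Vegfc, the ligand that drives lymphatic growth, was low, with 0.6103, 1.18 and 1.77 CPM in plexiform neurofibroma, against 0.428, 1.21 and 2.19 CPM in normal nerve. The log2 fold change was -0.11 (95% interval -0.90 to 0.69; edgeR adjusted p = 0.859), an interval that covers both 0 and the value for Vegfa. Per kilobase of the longest annotated transcript, mean CPM over 12 libraries was 21.8 for Vegfb, 11.9 for Vegfa and 0.49 for Vegfc, the order Vegfb, Vegfa, Vegfc.

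**Figure D4:**
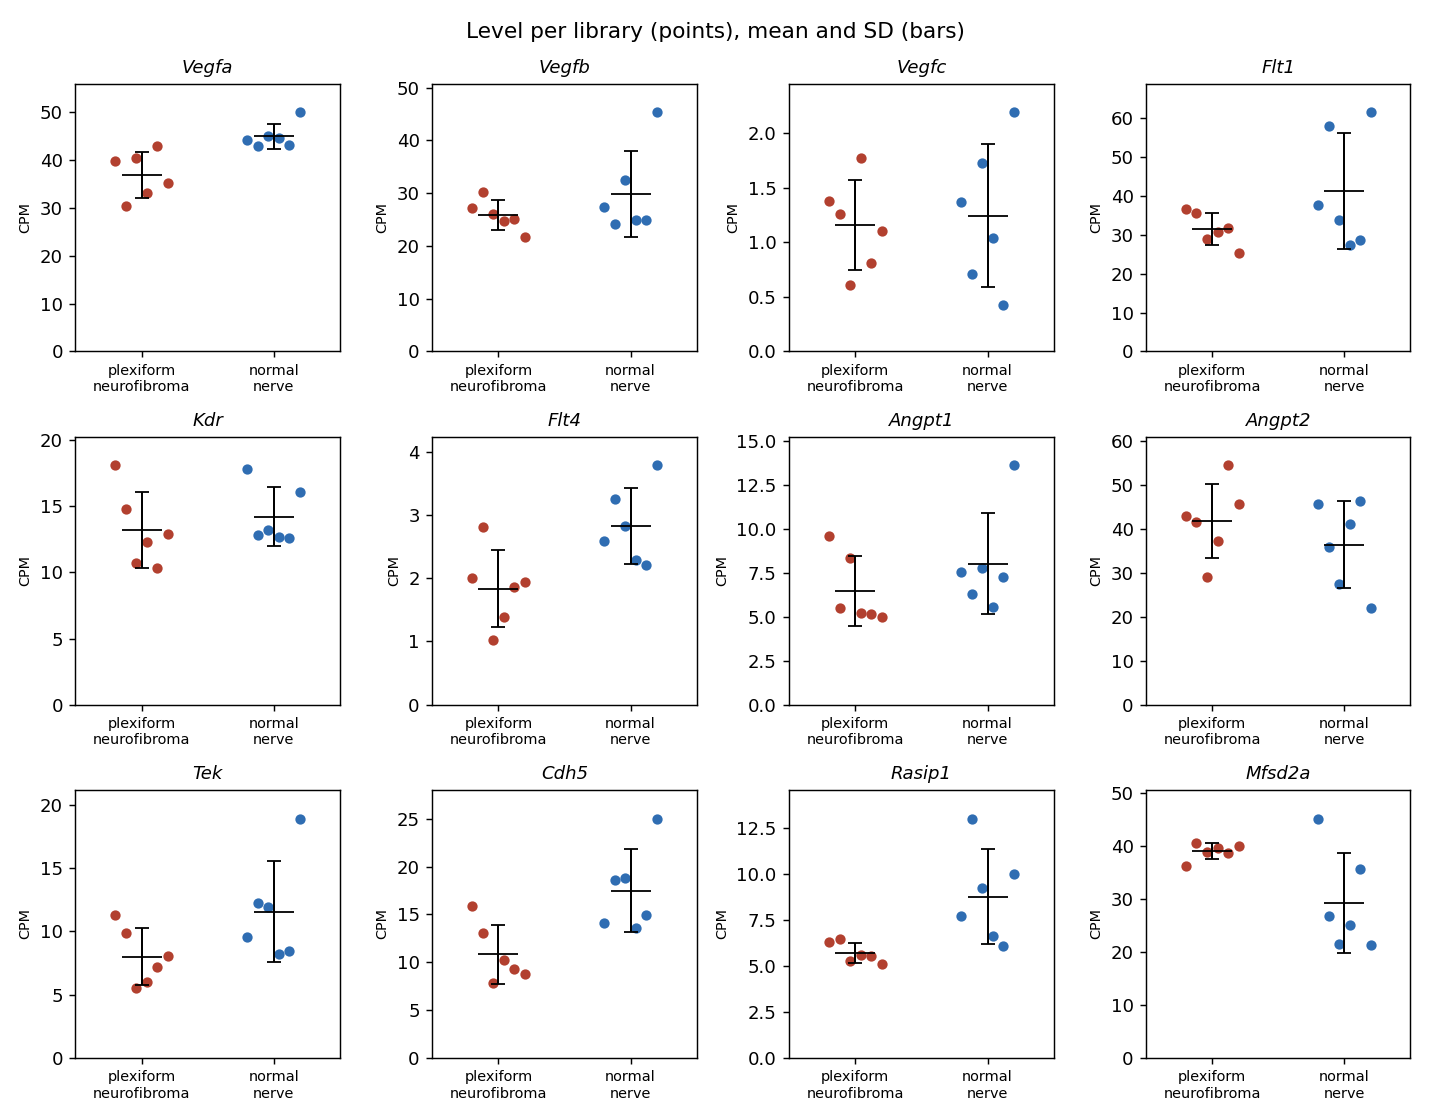
CPM in each library (points) with mean and SD (bars) for 12 members, plexiform neurofibroma left of normal nerve. Vegfa, Cdh5 and Rasip1 are lower in plexiform neurofibroma, and Mfsd2a sits at 36.2 to 40.6 CPM there against 21.2 to 45.1 CPM in normal nerve.

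No VEGF receptor passed edgeR's test. At an unadjusted p under 0.05 there was 1 of the 3, Flt4, which limma-voom also called and DESeq2 did not. Flt1, a receptor that binds Vegfa tightly and acts partly as a decoy, had 25.4, 31.2 and 36.6 CPM in plexiform neurofibroma, against 27.4, 35.8 and 61.5 CPM in normal nerve, with normal nerve covering a wider range. The estimated log2 fold change was -0.39 (95% interval -0.82 to 0.05; edgeR adjusted p = 0.188). It was -0.24 without normal nerve library 6, -0.02 without normal nerve libraries 2 and 6 and -0.14 with the haemoglobin covariate. Kdr, the principal signalling receptor for Vegfa, had 10.4, 12.6 and 18.1 CPM in plexiform neurofibroma, against 12.6, 13.03 and 17.9 CPM in normal nerve, and the groups overlap. The fitted log2 fold change was -0.11 (95% interval -0.42 to 0.21; edgeR adjusted p = 0.631). Flt4, the receptor for Vegfc in lymphatic and some other endothelium, had 1.998, 2.81, 1.02, 1.39, 1.86 and 1.94 CPM in plexiform neurofibroma libraries 1 to 6, against 2.59, 3.25, 2.82, 2.29, 2.21 and 3.78 CPM in normal nerve libraries 1 to 6. In 5 of 6 plexiform neurofibroma libraries Flt4 lay below the lowest normal nerve library, at a log2 fold change of -0.62 (95% interval -1.13 to -0.11; edgeR adjusted p = 0.0799). Leaving out plexiform neurofibroma library 2 brought its adjusted p to 0.0424. Per kilobase, mean CPM over 12 libraries was 5.27 for Flt1, 2.31 for Kdr and 0.373 for Flt4.

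Angiopoietins and their receptors did not pass the test either, although 2 of the 5 (Tek and Ptprb) had an unadjusted p under 0.05; DESeq2 and limma-voom called 0. Angpt1, the activating ligand, had 4.98, 5.35 and 9.58 CPM in plexiform neurofibroma, against 5.56, 7.42 and 13.6 CPM in normal nerve, where the highest normal nerve value is library 6. The change on the log2 scale was -0.31 (95% interval -0.82 to 0.20; edgeR adjusted p = 0.373), and -0.09 without that library. Angpt2, the context-dependent ligand, ran the other way, with 29.04, 42.3 and 54.4 CPM in plexiform neurofibroma, against 21.9, 38.5 and 46.3 CPM in normal nerve and a log2 fold change of 0.20 (95% interval -0.21 to 0.61; edgeR adjusted p = 0.477), which was -0.022 with the 3 libraries left out. Angpt2 lies within Mcph1 on the other strand, and Mcph1 averaged 11.99 CPM in plexiform neurofibroma and 13.3 CPM in normal nerve. Whether counting used strand is not given in the sources used here. Tek, the angiopoietin receptor, had 5.54, 7.62 and 11.3 CPM in plexiform neurofibroma, against 8.203, 10.8 and 18.9 CPM in normal nerve and a log2 fold change of -0.53 (95% interval -1.03 to -0.03; edgeR adjusted p = 0.119), which was -0.34 without normal nerve library 6. Tie1, its partner receptor, had 4.32, 5.72 and 8.48 CPM in plexiform neurofibroma, against 4.52, 7.21 and 12.3 CPM in normal nerve and a log2 fold change of -0.30 (edgeR adjusted p = 0.369), which was -0.12 without the same library. Ptprb, a phosphatase that restrains Tek, had 16.8, 20.3 and 31.7 CPM in plexiform neurofibroma, against 18.3, 28.7 and 90.6 CPM in normal nerve. Its log2 fold change was -0.80 (95% interval -1.55 to -0.04; edgeR adjusted p = 0.122) and -0.34 without normal nerve library 6, the 90.6 CPM library.

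Apelin (Apln), a peptide of sprouting endothelium, and its receptor Aplnr did not pass the test, with 0 of the pair below an unadjusted p of 0.05 and 0 called by DESeq2 or limma-voom. Apln had the lowest log2 fold change of the members, -1.14 (95% interval -2.54 to 0.26; edgeR adjusted p = 0.226), with 0.802, 1.298 and 3.12 CPM in plexiform neurofibroma, against 0.856, 1.87 and 12.6 CPM in normal nerve. Normal nerve library 6 alone holds the 12.6 CPM, and without it the log2 fold change was -0.06. Aplnr had 0.277, 0.539 and 1.998 CPM in plexiform neurofibroma, against 0.203, 0.719 and 1.18 CPM in normal nerve.

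Of the 11 junction and surface genes, Cdh5 fell and the other 10 did not pass edgeR's test, with Pecam1 the only other below an unadjusted p of 0.05. Cdh5 encodes VE-cadherin, the adhesion molecule of endothelial junctions (GRCm38 chr8:104101625-104144511, plus strand). It had 15.9, 13.1, 7.78, 10.2, 9.25 and 8.74 CPM in plexiform neurofibroma libraries 1 to 6, against 14.1, 18.6, 18.8, 13.6, 14.9 and 25.03 CPM in normal nerve libraries 1 to 6. In 5 of 6 plexiform neurofibroma libraries it lay below the lowest normal nerve library, and the group overlap comes from plexiform neurofibroma library 1, with 15.9 CPM. Its log2 fold change was -0.69 (SE 0.20, 95% interval -1.11 to -0.27; edgeR adjusted p = 0.0278), a fold of 0.619. Leaving out plexiform neurofibroma 3, 4, 5 or 6 or normal nerve 2 or 3 ended the call, with adjusted p up to 0.0633. For Cdh5 the log2 fold change was -0.64 (edgeR adjusted p = 0.0152) with the 3 libraries left out, -0.50 (0.0677) without normal nerve libraries 2 and 6, and -0.55 (0.0557) with the haemoglobin covariate, so the call held in the first of these and ended in the others. Pecam1, the platelet-endothelial adhesion molecule CD31, had 11.1, 15.3 and 22.1 CPM in plexiform neurofibroma, against 13.5, 20.9 and 35.5 CPM in normal nerve (log2 fold change -0.58; edgeR adjusted p = 0.13), and -0.17 without normal nerve libraries 2 and 6. The remaining 9 ran from -0.69 (Icam2, an adhesion ligand for leucocytes, adjusted p = 0.142, and -0.34 without normal nerve library 6) to 0.16 (Emcn, a sialomucin of the endothelial surface, adjusted p = 0.514). Between them lay Clec14a at -0.57, Mmrn2, its matrix ligand, at -0.32, Podxl at -0.31, Cd93 at -0.30, Esam at -0.22, Robo4 at -0.17 and Eng, a TGF-beta co-receptor, at -0.04.

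Of the secreted and enzyme products, none passed edgeR's test, Vwf and Nos3 were lower at an unadjusted p under 0.05, and DESeq2 called Nos3 and limma-voom none. Vwf, the clotting factor stored in endothelial granules, had 16.5, 23.9 and 29.4 CPM in plexiform neurofibroma, against 17.6, 35.5 and 69.4 CPM in normal nerve (log2 fold change -0.63; edgeR adjusted p = 0.141). The 69.4 CPM is normal nerve library 6, and the log2 fold change was -0.35 without it and -0.20 without normal nerve libraries 2 and 6. Nos3, endothelial nitric oxide synthase, had 1.98, 2.63 and 3.94 CPM in plexiform neurofibroma, against 2.71, 4.26 and 13.6 CPM in normal nerve, and its highest value is normal nerve library 6. For Nos3 the log2 fold change was -0.99 (95% interval -1.81 to -0.17; edgeR adjusted p = 0.0827), -0.51 without that library and -0.33 without normal nerve libraries 2 and 6. Atg9b, which overlaps Nos3 on the other strand, stood at 2.14 CPM in plexiform neurofibroma and 2.86 CPM in normal nerve. Egfl7, a secreted matrix protein of endothelium, had 21.6, 24.4 and 31.6 CPM in plexiform neurofibroma, against 19.1, 22.9 and 29.8 CPM in normal nerve and a log2 fold change of 0.06 (edgeR adjusted p = 0.779). Cdh5, Rasip1, Angpt1, Eng, Egfl7, Plvap, Abcb1a, Slc7a5, Fli1, Sox17, Lmo2 and Prox1 are also overlapped by an annotated gene on the other strand. Overlap was judged on whole gene ranges, and overlap of exons was not checked. The counts of these genes may be uncertain if strand was not used.

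Rasip1, which links RAS-family GTPases to vessel lumen formation (GRCm38 chr7:45627488-45639093, plus strand), fell. It had 6.302, 6.47, 5.29, 5.59, 5.53 and 5.11 CPM in plexiform neurofibroma libraries 1 to 6, against 7.71, 13.02, 9.27, 6.604, 6.06 and 10.02 CPM in normal nerve libraries 1 to 6. In 4 of 6 plexiform neurofibroma libraries it lay below the lowest normal nerve library, and plexiform neurofibroma stayed within 5.11 to 6.47 CPM. Its log2 fold change was -0.62 (SE 0.17, 95% interval -1.0 to -0.24; edgeR adjusted p = 0.027), a fold of 0.651. Leaving out plexiform neurofibroma 3, 4 or 6 or normal nerve 3 ended the call, with adjusted p up to 0.0599 among these. In further fits the log2 fold change was -0.59 (edgeR adjusted p = 0.0697) with the 3 libraries left out, -0.38 (0.0634) without normal nerve libraries 2 and 6, and -0.48 (0.0633) with the haemoglobin covariate, and each ended the call. Izumo1, whose gene overlaps Rasip1, was at 0.0707 CPM in plexiform neurofibroma and 0.0232 CPM in normal nerve. Arhgef15, an exchange factor of endothelium, had 4.98, 5.59 and 7.02 CPM in plexiform neurofibroma, against 5.63, 7.41 and 15.8 CPM in normal nerve (log2 fold change -0.60; edgeR adjusted p = 0.0888), and the log2 fold change was -0.37 without normal nerve library 6.

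Among the fenestra and barrier genes none passed edgeR's test, and Mfsd2a (higher) and Abcb1a (lower) had an unadjusted p under 0.05. Mfsd2a, the lysolipid transporter that keeps transcytosis low in barrier vessels, had 36.2, 40.6, 38.9, 39.5, 38.6 and 39.99 CPM in plexiform neurofibroma libraries 1 to 6, against 45.1, 26.8, 21.5, 25.03, 35.6 and 21.2 CPM in normal nerve libraries 1 to 6. Plexiform neurofibroma libraries stayed close together while normal nerve spread widely, and library 1 of normal nerve exceeded every plexiform neurofibroma library. Mfsd2a was lowest in normal nerve library 6, the highest of 12 for 25 members. Per kilobase its mean CPM over 12 libraries was 15.8, against 3.55 for Cdh5. Which cells of the nerve hold this RNA was not tested. The log2 fold change was 0.41 (SE 0.16, 95% interval 0.06 to 0.77; edgeR adjusted p = 0.0923), and 0.58 (adjusted p = 0.00832) without normal nerve library 1. limma-voom called it higher and DESeq2 called none of these genes. Plvap, the diaphragm protein of fenestrated vessels, had 1.55, 3.44 and 5.38 CPM in plexiform neurofibroma, against 1.42, 3.67 and 12.9 CPM in normal nerve (log2 fold change -0.57; edgeR adjusted p = 0.416). Of the transporters, Abcb1a, an efflux pump whose estimated counts may be shared with its close paralog Abcb1b, had 22.5, 30.3 and 38.02 CPM in plexiform neurofibroma, against 30.3, 36.4 and 53.1 CPM in normal nerve (log2 fold change -0.37; edgeR adjusted p = 0.113). The organic anion carrier Slco1a4 stood at -0.19 and the amino acid transporter Slc7a5, also used by other growing cells, at 0.15 on the log2 scale (edgeR adjusted p = 0.409 and 0.58).

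None of the 8 transcription factors passed edgeR's test, 2 (Erg and Sox17) were lower at an unadjusted p under 0.05, and DESeq2 called Sox17 and limma-voom none. Sox17, an arterial factor, had 3.37, 4.75 and 5.67 CPM in plexiform neurofibroma, against 4.85, 6.55 and 13.7 CPM in normal nerve, where the 13.7 CPM is normal nerve library 2 (log2 fold change -0.67, 95% interval -1.18 to -0.17; edgeR adjusted p = 0.0602). Without that library it was -0.40, and edgeR called Sox17 without normal nerve library 5 (adjusted p = 0.0492) or 6 (0.0464). Erg, an ETS factor that maintains endothelial identity, stood at -0.51 (edgeR adjusted p = 0.136) and Fli1, another ETS factor, at 0.13 (0.546). Sox18 stood at -0.57, Gata2 at -0.52, Tal1 at -0.59 and Lmo2 at -0.01, with edgeR adjusted p of 0.217, 0.228, 0.434 and 0.978. Without normal nerve libraries 2 and 6 the log2 fold changes were -0.24 for Sox18, -0.12 for Gata2, 0.4 for Tal1 and 0.23 for Lmo2. Tal1 had 6.705 CPM in normal nerve library 6 and at most 1.497 CPM in the other normal nerve libraries. Without library 6 alone the Tal1 log2 fold change was 0.31. Prox1, the lymphatic fate factor, had 0.757, 1.23 and 4.51 CPM in plexiform neurofibroma, against 0.278, 1.88 and 14.1 CPM in normal nerve, with 14.1 CPM in normal nerve library 6 alone (log2 fold change -1.10, 95% interval -2.88 to 0.67; edgeR adjusted p = 0.358; 0.10 without that library).

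Per kilobase of transcript, the 42 members spanned mean CPM over 12 libraries of 21.8 (Vegfb) to 0.197 (Aplnr). After Vegfb came Mfsd2a at 15.8, Slc7a5 at 14.1, Egfl7 at 13.1, Vegfa at 11.9 and Angpt2 at 11. The low end held Vegfc at 0.49, Tal1 at 0.394, Flt4 at 0.373 and Prox1 at 0.337. Neighbours in this order were not tested against each other.

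Within-library log2 ratios of 10 member pairs depend on library scaling only through the pseudocount of 0.5 CPM. By two-sided exact permutation tests over all splits of 6 against 6, which can give no p below 0.00216, none of the 10 passed after Benjamini-Hochberg adjustment, and 3 had an unadjusted p under 0.05. Mfsd2a to Cdh5 averaged 1.84 ± 0.40 in plexiform neurofibroma and 0.70 ± 0.69 in normal nerve (SD, n = 6 each), a difference of 1.14 (exact permutation p = 0.0108, adjusted 0.108). In 4 of 6 plexiform neurofibroma libraries it exceeded the highest normal nerve library. Podxl to Cdh5 averaged 1.08 ± 0.30 in plexiform neurofibroma and 0.66 ± 0.22 in normal nerve, a difference of 0.42 (exact permutation p = 0.0216, adjusted 0.108). Both had an adjusted p of 0.0325 without plexiform neurofibroma library 1. They share Cdh5, a called member, and Mfsd2a had the highest fold change of the members. These ratios are therefore not separate from the results for the single genes. Flt4 to Kdr averaged -2.57 ± 0.32 in plexiform neurofibroma and -2.15 ± 0.27 in normal nerve (exact permutation p = 0.0411, adjusted 0.137), and Tie1 to Tek -0.32 ± 0.17 in plexiform neurofibroma and -0.55 ± 0.19 in normal nerve (0.0563, adjusted 0.141). Angpt2 to Angpt1 averaged 2.62 ± 0.59 in plexiform neurofibroma and 2.12 ± 0.79 in normal nerve, a difference of 0.50 (exact permutation p = 0.253, adjusted 0.476). Flt1 to Kdr, Vegfa to Vegfb, Vegfc to Vegfa, Plvap to Cdh5 and Apln to Aplnr each had an adjusted p of 0.476.

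**Figure D5:**
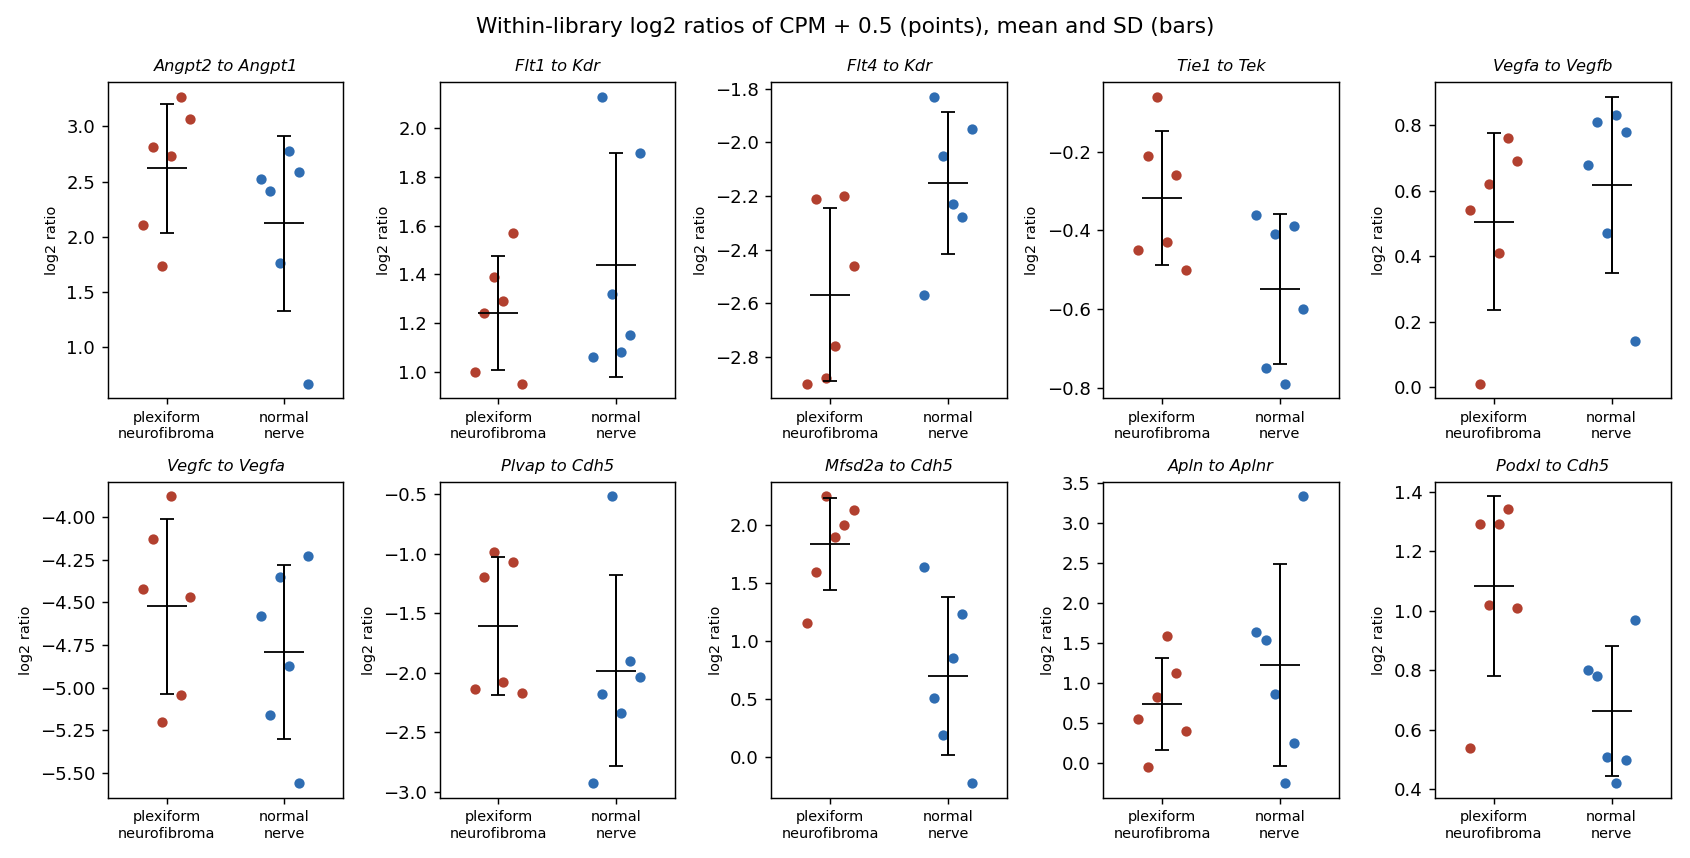
Within-library log2 ratios of CPM + 0.5 for 10 pairs of members, plexiform neurofibroma left of normal nerve, with points for libraries and bars for mean and SD. Mfsd2a to Cdh5 and Podxl to Cdh5 have the smallest exact permutation p-values, 0.0108 and 0.0216, and none of the 10 passes after adjustment.

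Genes outside the 42 give the setting, as counts of called genes among those tested in each list. Over all genes tested, edgeR called 10.0% higher and 8.63% lower. In either direction DESeq2 called 25.0% and limma-voom 32.4%, and 35.2% had an unadjusted p under 0.05 by edgeR. Of 4 other VEGF ligands, receptors and co-receptors 0 were called by edgeR, DESeq2 or limma-voom, and 0 had an unadjusted p under 0.05. Nrp1, a co-receptor, had 146 ± 8.18 CPM in plexiform neurofibroma and 133 ± 9.57 CPM in normal nerve. Of 20 VEGF receptor signalling genes and early targets, 3 were higher and 0 lower. The log2 fold change was above 0 for 11 and below 0 for 9, with a median of 0.04. At an unadjusted p under 0.05, 5 were higher and 4 lower. DESeq2 called 3 higher and 2 lower, limma-voom 4 and 4, and edgeR without normal nerve library 6 called 4 and 3. The called genes were the immediate early gene Nr4a1 (1.75-fold, adjusted p = 0.00325), Nfatc1 (1.73-fold, adjusted p = 0.0142) and Ptk2, focal adhesion kinase (1.39-fold, adjusted p = 0.0165). Of 36 other endothelial genes, 5 were higher (3 without plexiform neurofibroma 2, 4 or 6 or normal nerve 3) and 3 lower (0 without plexiform neurofibroma 4 or 6, and 1 without plexiform neurofibroma 3 or 5 or normal nerve 2 or 3), with median log2 fold change -0.20. At an unadjusted p under 0.05, 6 were higher and 8 lower, DESeq2 called 5 higher and 7 lower, and limma-voom called 5 higher and 2 lower. Without normal nerve libraries 2 and 6 the list's median was 0.11. The first by p-value were Nr2f2, a venous factor (1.4-fold, adjusted p = 0.00523), Ets1 (1.58-fold, adjusted p = 0.00816), Hey2 (1.5-fold, adjusted p = 0.0228) and the arterial ligand Efnb2 (0.805-fold, adjusted p = 0.0245). Nr2f2, also listed for lymphatic endothelium, and Nr4a1 separated the groups without overlap, as did 7.39% of all genes tested.

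Several genes listed for tip cells and sprouting were higher, among them basement membrane genes. Of 13 tip cell and sprouting genes tested, 6 were higher and 0 lower, where 10.0% of all genes tested were called higher. The log2 fold change was above 0 for 9 and below 0 for 4, with a median of 0.50, against -0.02 over all genes tested. Of these genes Apln (-1.14) and Angpt2 (0.20) are members, and neither was called. The rest of the list, Esm1, Dll4, Kcne3, Cxcr4, Unc5b and Ramp3, were not called or were too low to test. At an unadjusted p under 0.05, by DESeq2 and by limma-voom 0 were lower. Each of the 6 was called with each library left out in turn, and 5 were called with the 3 libraries left out. They included Igfbp3 (2.17-fold, adjusted p = 0.001), the laminin Lama4 (1.82-fold, adjusted p = 0.00407) and the basement membrane collagens Col4a2 (1.91-fold, adjusted p = 0.00564) and Col4a1 (1.88-fold, adjusted p = 0.00877), and the other 2 were Pdgfb and Nid2, named after their values were seen. Several of these are also made by Schwann cells, fibroblasts and mural cells. In the same libraries 5 of 9 fibroblast markers (3 without plexiform neurofibroma 2, 4 or 6 or normal nerve 5), 6 of 10 Schwann cell markers (4 to 7 on leaving out each library, 3 with the 3 libraries left out) and 2 of 12 mural cell markers (1 to 3 on leaving out each library) were higher (Cspg4 3.04-fold, adjusted p = 0.00167, and Pdgfrb 1.45-fold, adjusted p = 0.0289), and the part of these cells in the result was not tested. Of 20 barrier junction and transport genes, 2 were higher and 0 lower. The log2 fold change was below 0 for 12 and above 0 for 8, with a median of -0.22. At an unadjusted p under 0.05, 3 were higher and 3 lower. DESeq2 called 2 higher and 1 lower, and limma-voom 3 higher and 1 lower. The 2 higher by edgeR were the junctional adhesion molecules Jam3 (1.67-fold, adjusted p = 0.0169) and Jam2 (1.24-fold, adjusted p = 0.0382). Only 1 was higher without any 1 of 9 libraries, that is each but plexiform neurofibroma 5 and normal nerve 5 and 6. With the 3 libraries left out 0 were higher.

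Hypoxia genes gave 1 higher and 0 lower of 14 tested, and the higher gene was the vasoactive peptide Adm (2-fold, adjusted p = 0.0187). At an unadjusted p under 0.05, 3 were higher and 0 lower. DESeq2 called 1 higher and 0 lower, limma-voom 4 higher and 0 lower, and edgeR 1 to 2 higher on leaving out each library. Hif1a, the oxygen-regulated factor that induces Vegfa, had 81.7, 97 and 109 CPM in plexiform neurofibroma, against 96.3, 100.2 and 102 CPM in normal nerve. Of 9 lymphatic endothelial genes, of which Flt4 and Prox1 are members, 2 were higher and 0 lower by edgeR (1 lower at an unadjusted p under 0.05, 0 by DESeq2 and 1 by limma-voom; the higher genes were Nr2f2 and Pdpn, 1.6-fold, adjusted p = 0.0375), and 1 without plexiform neurofibroma 2, 4 or 6 or normal nerve 3, 4 or 5. Other cells that express some of the members were counted too. Of 11 haematopoietic and macrophage genes 3 were higher (Aif1 3.35-fold, adjusted p = 0.0177, Fcer1g and Csf1r, with 1 to 6 on leaving out each library) and 1 lower (Cd163 0.549-fold, adjusted p = 0.0475). The log2 fold change was above 0 for 10 and below 0 for 1, with a median of 0.85. At an unadjusted p under 0.05, 7 were higher and 1 lower. DESeq2 called 5 higher and 1 lower, and limma-voom 7 higher and 1 lower. Of 7 mast cell genes tested, where Gata2 and Tal1 are also used, 0 were called by edgeR and 1 was lower at an unadjusted p under 0.05, and of 3 platelet genes, where Vwf and Fli1 are also used, 0 were called and 0 had an unadjusted p under 0.05. Erythroid genes had a median log2 fold change of -1.44 with 0 of 5 called and 1 with an unadjusted p under 0.05; DESeq2 and limma-voom called none in these 3 lists. The genes with the smallest p there were Kit (0.79-fold, adjusted p = 0.136), Gp1ba (0.755-fold, adjusted p = 0.369) and Alas2 (0.281-fold, adjusted p = 0.121). Kit and Gp1ba ran against most of their lists. The log2 fold change was above 0 for 6 of the 7 mast cell genes (median 0.55) and 2 of the 3 platelet genes (median 0.18). It was below 0 for all 5 erythroid genes. The fibroblast markers first by p-value were Col3a1 (4.3-fold, adjusted p = 0.00952), Col1a2, Lum and Col1a1, and the called Schwann cell markers included S100b (1.74-fold, adjusted p = 0.00115), Cdh19 and Foxd3. Of 5 perineurial genes Cldn1 was higher (1.55-fold, adjusted p = 0.0469), which 9 of the single omissions ended. DESeq2 called 1 perineurial gene higher and 0 lower, limma-voom 0 higher and 1 lower, and edgeR 0 higher and 1 lower without normal nerve library 6 and with the 3 libraries left out. Of 15 sensory neuron genes Snap25 was lower (0.722-fold, adjusted p = 0.00986) and, without normal nerve library 6, 7 were lower. Of 6 skeletal muscle and 9 central nervous system genes edgeR called 0, with Actn3 (3.15-fold, adjusted p = 0.28) and Slc17a7 (0.677-fold, adjusted p = 0.054) at the smallest p. At an unadjusted p under 0.05 there were 0 muscle and 2 central nervous system genes, both lower, and DESeq2 and limma-voom each called 0 and 2.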

How the data were processed

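The authors deposited 1 table of estimated counts (expected counts) per gene symbol, not normalized, of polyA RNA from 12 trigeminal nerve samples. FastQC, STAR 2.4.2a, Salmon 0.60 and DESeq2 with build mm10 are named, per the submitters' processing notes, without role or order. The labels name 2 library kits, and the counting's strand setting and annotation were not given in the sources used here. Between 84.1% and 86.5% of values per library were whole within 0.001. Expected counts were rounded. Estimated counts can be shared out between near-identical genes.

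Columns were matched to samples by title. Replicates are numbered in accession order, and the labels give no pairing. Genes passing filterByExpr (17236) were tested with edgeR 4.0.16 (R 4.3.3) by its quasi-likelihood F test (robust, TMM factors, no covariate), with Benjamini-Hochberg adjustment over all of them and calls at an adjusted p under 0.05. Adjusted p-values of genes are from this fit where no other tool is named. Standard errors derive from the F statistic. Ratios used log2(CPM + 0.5). GENCODE vM21 on GRCm38 was used for symbols (45187 directly, 627 through another symbol, 1666 not), coordinates and transcript lengths. The fit was tested on simulated data.

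Alternatives tried were upper-quartile or RLE factors, no filter, CPM above 1 in 6 samples, DESeq2 1.42.0, limma 3.58.1 voom with sample weights, transcript length correction, pseudocounts of 0.1 and 2 for the ratios, and each library left out. The fits without 3 libraries, without normal nerve libraries 2 and 6, and with a haemoglobin covariate were chosen after seeing the data. The members and gene lists were chosen with earlier results of these data known. By rule, every called member and every VEGF ligand, VEGF receptor, angiopoietin and TIE receptor is given in full, and up to 4 called genes by p-value from each other list, of which 1 is not reported here.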

Additional observations from a re-analysis of the deposited data

Results flagged for a closer look

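In 15 of the 84 gene-by-group sets of 6 libraries, 1 library stood apart from the other 5 by Dixon's 95% criterion. A rate of 1 in 20 would give 4.2 if values were normally distributed. CPM were not transformed here and the genes share the same 12 libraries, so the 15 cannot be judged against that figure. Of the 15, 10 are high values of normal nerve library 6. In normal nerve library 6 the value in CPM, with the nearest other library of its group, was Vegfa 49.9 (next 45.02), Angpt1 13.6 (next 7.77), Tek 18.9 (next 12.2), Ptprb 90.6 (next 38.97), Apln 12.6 (next 2.44), Icam2 5.05 (next 2.54), Nos3 13.6 (next 5.85), Tal1 6.71 (next 1.497), Lmo2 23.6 (next 15.8) and Prox1 14.1 (next 3.28). In plexiform neurofibroma library 1 the value in CPM, with the nearest other library of its group, was Aplnr 1.998 (next 0.859) and Prox1 4.51 (next 1.62). In normal nerve library 3 the value in CPM, with the nearest other library of its group, was Plvap 12.9 (next 5.71). In plexiform neurofibroma library 6 the value in CPM, with the nearest other library of its group, was Slco1a4 38.3 (next 32.3). In normal nerve library 2 the value in CPM, with the nearest other library of its group, was Sox17 13.7 (next 7.36). Normal nerve library 6 also held the highest haemoglobin and central nervous system transcript sums, 4490 and 2604 CPM, and the part of these in its high values was not tested.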

How the results depend on the processing

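Members called lower numbered 3, and 5 with DESeq2, 1 with 3 libraries left out, 0 with normal nerve libraries 2 and 6 left out and 0 with the haemoglobin covariate. Leaving out each library gave 0 to 4, with 0 without plexiform neurofibroma 4 or 6 or normal nerve 3. Members called higher numbered 0, and 1 with limma-voom, with 0 to 1 on leaving out each library. Over the other lists, genes called higher numbered 35 (23 to 44 on leaving out each library) and called lower 5 (1 to 16). Of all genes tested, 10.0% were called higher and 8.63% lower, and 10.9% to 28.8% in either direction on leaving out each library. Genes of the other lists called lower numbered 1 with no filter, 3 with transcript length correction, 15 with DESeq2, 16 with limma-voom, 14 with 3 libraries left out, 11 with normal nerve libraries 2 and 6 left out. The shares of all genes tested called in either direction there were 7.04%, 15.1%, 25.0%, 32.4%, 23.3% and 26.0%. Leaving out each library gave differences of 0.95 to 1.33 for Mfsd2a to Cdh5 and 0.36 to 0.52 for Podxl to Cdh5, called only without plexiform neurofibroma library 1. The following log2 fold changes changed sign, the cause was not tested, and no such member was called. With 3 libraries left out, they were Vegfb 0.015, Vegfc 0.3, Angpt2 -0.022, Clec14a 0.029, Eng 0.16, Plvap 0.28, Slc7a5 -0.04, Tal1 0.44, Lmo2 0.16. With limma-voom, they were Vegfc 0.17, Aplnr -0.17, Eng 0.17, Slco1a4 0.029, Tal1 0.29, Lmo2 0.15, Prox1 0.37. With haemoglobin covariate, they were Vegfc 0.015, Eng 0.16, Tal1 0.18, Lmo2 0.15, Prox1 0.14. With normal nerve libraries 2 and 6 left out, they were Apln 0.15, Esam 0.02, Podxl 0.028, Eng 0.26, Robo4 0.0022, Slco1a4 0.076, Tal1 0.4, Lmo2 0.23, Prox1 0.13. With transcript length correction, they were Egfl7 -0.012. With no filter, they were Lmo2 0.0084. On leaving out each library the ranges were Vegfc -0.28 to 0.12, Aplnr -0.47 to 0.32, Eng -0.14 to 0.11, Robo4 -0.29 to 0.007, Egfl7 -0.019 to 0.14, Plvap -0.76 to 0.0015, Tal1 -0.77 to 0.31, Lmo2 -0.071 to 0.16, Prox1 -1.7 to 0.1. Aplnr was too low to test with 3 libraries left out. Without a filter Vegfa was not called. No paired analysis was possible because the labels give no replicate numbers or pairing. Members low in CPM, such as Vegfc, Aplnr, Tal1 and Icam2, rest on 4 to 101 counts per library.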
